A study of Mus musculus with 2 samples.

Results

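The transcripts of splicing factors were compared between 2 samples of E14, a mouse embryonic stem cell line, given either an Mll2 short hairpin RNA (shRNA) or a control shRNA. The members were the 170 probe sets of the array whose platform annotation gives a single gene symbol starting with Srsf, Hnrnp, Sf3a, Sf3b, Snrp or Prpf, without Snrpn, of 45037 probe sets in all. They stand for 58 genes of 18193 named ones. By family they comprise 33 probe sets of 10 SR protein genes, 58 of 19 hnRNP genes, 30 of 9 SF3 genes, 17 of 8 snRNP genes and 32 of 12 PRPF genes. Mll2 names a histone H3 lysine 4 methyltransferase. In both groups the shRNA was delivered by lentivirus, and the protocol gives 24 h of infection and 5 days of puromycin selection before total RNA was taken. Each group was 1 sample on 1 Affymetrix 3' expression array, and the labels name neither the hairpin sequence nor a cell clone. With 1 array per group there is no replicate error, so differences are given as sizes, without tests or p-values.

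Splicing removes introns from pre-mRNA through the spliceosome, which is built from small nuclear ribonucleoproteins (snRNPs), each a small nuclear RNA with a ring of Sm proteins and particle-specific proteins. The SF3a and SF3b complexes belong to the U2 snRNP and hold it on the intron branch site, and the PRPF proteins act mostly in the later spliceosome. SR proteins bind exons and usually favour their inclusion, whereas hnRNP proteins coat nascent RNA and often oppose inclusion. Many SR and hnRNP genes limit their own mRNA by splicing in exons that lead to decay.

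Promoter windows of 5 members are printed as examples, chosen after their ratios were seen. Snrpc, Snrpg, Sf3a1 and Sf3b3 come from the snRNP and SF3 families, which lay lowest by median. Hnrnpul1 had the highest probe set among those measured on both arrays. Snrpa1, which had the lowest snRNP probe set, is not printed. The windows run from 250 bases before to 50 bases after the annotated start, 5′ to 3′, from RefSeq on build GRCm38.p6. Capitals mark matches to 5 motifs searched on both strands: the ETS core CCGGAAG, the NRF1 and YY1 motifs (10 and 11 bases), the CCAAT box and the TATA box TATAAA. Snrpc lies at chr17:27839837-27840136 (plus strand), Snrpg at chr6:86371290-86371589 (plus), Sf3a1 at chr11:4160104-4160403 (plus), Sf3b3 at chr8:110846754-110847053 (minus) and Hnrnpul1 at chr7:25754710-25755009 (minus).
Snrpc: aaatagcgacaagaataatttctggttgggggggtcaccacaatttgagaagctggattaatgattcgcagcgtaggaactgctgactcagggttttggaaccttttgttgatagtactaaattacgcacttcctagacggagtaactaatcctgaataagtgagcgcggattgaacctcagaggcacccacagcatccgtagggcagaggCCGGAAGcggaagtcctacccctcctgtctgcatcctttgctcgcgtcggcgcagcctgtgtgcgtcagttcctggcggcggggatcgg
Snrpg: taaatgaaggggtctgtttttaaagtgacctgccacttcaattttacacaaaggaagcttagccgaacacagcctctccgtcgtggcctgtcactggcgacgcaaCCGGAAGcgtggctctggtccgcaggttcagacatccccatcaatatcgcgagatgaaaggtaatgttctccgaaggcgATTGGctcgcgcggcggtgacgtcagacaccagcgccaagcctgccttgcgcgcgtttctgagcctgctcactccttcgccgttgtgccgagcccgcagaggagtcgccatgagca
Sf3a1: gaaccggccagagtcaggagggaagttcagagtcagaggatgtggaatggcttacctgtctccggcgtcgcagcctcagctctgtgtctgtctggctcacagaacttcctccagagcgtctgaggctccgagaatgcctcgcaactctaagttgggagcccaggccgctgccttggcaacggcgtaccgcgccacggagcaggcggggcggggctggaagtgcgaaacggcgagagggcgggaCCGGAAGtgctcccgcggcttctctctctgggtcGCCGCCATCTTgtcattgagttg
Sf3b3: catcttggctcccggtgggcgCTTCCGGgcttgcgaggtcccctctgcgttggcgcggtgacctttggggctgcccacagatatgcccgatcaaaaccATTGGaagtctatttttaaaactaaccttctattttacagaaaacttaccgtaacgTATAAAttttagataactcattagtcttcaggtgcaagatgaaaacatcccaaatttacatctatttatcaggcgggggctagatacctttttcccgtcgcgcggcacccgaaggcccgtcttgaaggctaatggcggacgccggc
Hnrnpul1: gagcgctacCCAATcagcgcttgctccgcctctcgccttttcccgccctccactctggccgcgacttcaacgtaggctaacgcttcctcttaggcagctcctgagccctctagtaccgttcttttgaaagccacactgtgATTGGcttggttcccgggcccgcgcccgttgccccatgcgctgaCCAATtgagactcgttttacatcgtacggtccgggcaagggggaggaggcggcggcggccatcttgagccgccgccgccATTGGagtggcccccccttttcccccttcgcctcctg

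The ETS core was found in 6 of the 7 SF3 genes with a promoter in the table, in 4 of 7 snRNP genes, 4 of 11 PRPF genes, 3 of 10 SR genes and 2 of 17 hnRNP genes. Counted over windows, 87.5% of 8 SF3 and 57.1% of 7 snRNP windows held it, against 15.4% of 26 hnRNP windows, 17.1% of the 12256 windows of genes measured on these arrays and 8.86% of all 32851 windows. The CCAAT box was in 61.5% of hnRNP windows, against 37.6% of the windows of measured genes. The NRF1 and YY1 motifs were in 1 member window each, of 68, and the TATA box in 5 of them (7.35%, against 7.19% for measured genes). Member windows held a median of 25 CpG dinucleotides, with 38 in the SR family and 20 in the snRNP family, where windows of all measured genes held 20. A match describes these letters only, and binding was not measured.

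The values are the deposited log2 MAS5 signals. Values under a floor, the median of all values (log2 6.02, signal 64.8), were set to the floor. Measured means above it on 1 array or both. A ratio is the log2 value of the Mll2 shRNA array minus that of the control array, and 1 stands for 2-fold. The spread at a level is the scaled median absolute deviation of ratios among the 500 measured probe sets closest in mean level. True differences enter it too, and it does not cover variation between cultures.

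As the check of the labels, the Kmt2d probe set 1435550_at gave a signal of 335 with the Mll2 shRNA against 736 with the control (log2 ratio -1.14), and the other Kmt2d probe set lay below the floor. The name Mll2 has also been used for Kmt2b, which was at -0.08 (1452916_at). The 2 arrays had medians of 6.01 and 6.02 and a Pearson r of 0.93 across 45037 probe sets, which are not replicates. The 10 embryonic stem cell markers, Pou5f1, Sox2 and Nanog among them, were all measured, with a summed log2 signal of 16.45 with the Mll2 shRNA and 16.50 with the control. Single markers differed in both directions beyond their spreads, with Pou5f1 at -0.44 and Utf1 at -0.41 against Klf4 at 0.59 and Nanog at 0.47. Of the fibroblast or feeder markers, 5 of 8 were below the floor on both arrays, and the summed log2 signal of the other 3 was 9.02 and 8.81. The brightest, Col3a1, read 8.23 and 7.90 (ratio 0.34, spread 0.34). Col1a2 was at 0.70 (spread 0.47), and Col1a1, under the floor with the Mll2 shRNA, at -0.58 or lower (spread 0.75). The summed log2 signal of 6 neural markers was 11.9 with the Mll2 shRNA against 12.6, with Nefl 2.25-fold lower and Sox1 2.51-fold higher. Nefl, by far the brightest at 10.98 against 12.14, dominates this sum. By gene, 4 of the 6 were above 0 and the median ratio was 0.14. Primitive endoderm markers gave 8.80 and 8.99 over the 3 of 5 that were measured, and mesendoderm markers 8.0002 and 8.1551 over 2 of 5. All these summed signals took the deposited values, without setting low ones to the floor. Sox17 was under the floor in the control (6.60 against 5.77). Mesp1 was under it with the Mll2 shRNA (4.93 against 6.42). The lower mesendoderm sum rests on Mesp1, since Eomes, the brighter of the 2, was higher at 7.82 against 7.64. The part of the markers in the results was not tested. Fewer cells of a type and less RNA per cell cannot be told apart in such bulk RNA.

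Most splicing factor transcripts had nearly the same signal on both arrays. Of the 170 probe sets, 159 were measured (93.5%, against 53.4% of all probe sets), and 156 lay above the floor on both arrays. No member was 2-fold lower, and 1 was at least 2-fold higher, a probe set of Hnrnpk whose other 3 probe sets lay between -0.13 and 0.25. Over all 24071 measured probe sets, 1.3% passed the 2-fold limit upward and 0.91% downward. Among members above the floor on both arrays, 148 of 156 (94.9%) lay within 0.5 of 0 on the log2 scale, compared with 83.7% of all 20966 such probe sets. A total of 41 of these 156 lay further from the median of their 500 neighbours in level than the spread there, 23 above and 18 below, where 30.6% of all probe sets did so, 15.8% above and 14.8% below. Members were bright, with a median level of 11.9 against 8.75 for all, and the spread narrows with level.

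Family medians lay between -0.20 and -0.02. Among probe sets over the floor in both, the median ratio was -0.02 for SR and for hnRNP genes, -0.05 for PRPF, -0.12 for SF3 and -0.20 for snRNP genes, and it was 0.02 over all probe sets. Ratios were below 0 in 13 of 14 snRNP, 20 of 27 SF3, 18 of 29 PRPF, 28 of 54 hnRNP and 16 of 32 SR probe sets, where 47.6% of all probe sets were below 0. Bright probe sets leaned downward in general. At a mean level of 12 or more, 64.8% of 2110 probe sets were below 0 with a median of -0.08, and the 11 snRNP probe sets there were all below 0 with a median of -0.19. After subtraction of the median of the neighbours in level, the snRNP and SF3 medians were both -0.13, and the SR and hnRNP medians were 0.02 and 0.03. These differences between families are small, and with 1 array per group they could not be tested.

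**Figure D1:**
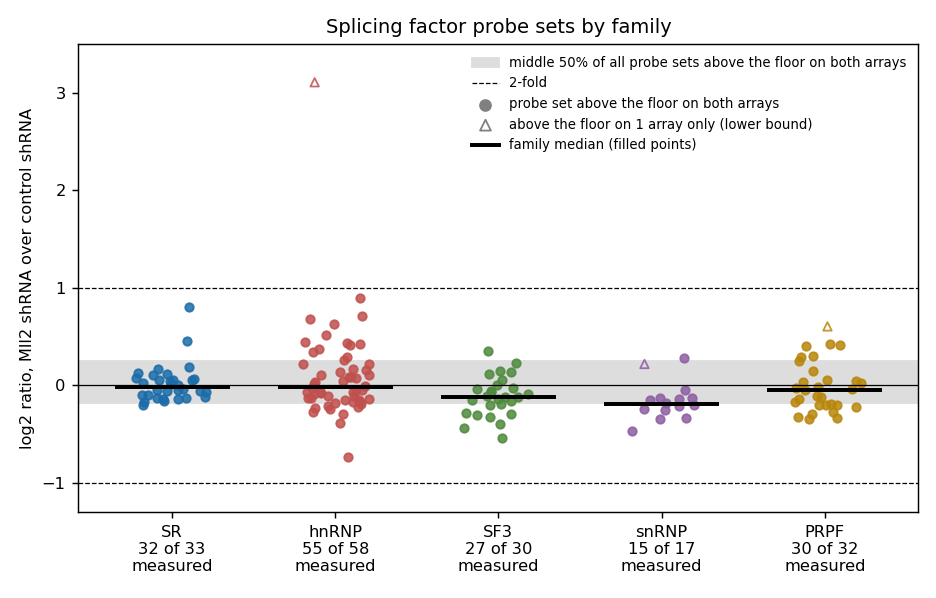
Log2 ratios (Mll2 shRNA over control shRNA, vertical axis) of the measured splicing factor probe sets by family, 1 point per probe set. Bars are medians of the filled points, the grey band holds the middle 50% of all probe sets, and the open triangle at 3.11 is the Hnrnpk probe set 1454692_x_at. The snRNP median of -0.20 is the lowest.

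The snRNP family is described first. Snrpc, a protein of the U1 snRNP that recognises the 5′ splice site, read 11.54 on the log2 scale with the Mll2 shRNA against 11.88 in the control (1416197_at, ratio -0.34, spread 0.23). Snrpa1, a U2 snRNP protein, was lower in each of its 3 probe sets, which averaged -0.28 ± 0.17 (SD over probe sets). Its lowest, 1417352_s_at, read 12.13 against 12.60 (ratio -0.47, spread 0.21) and its brightest, 1417351_a_at, 12.77 against 12.89 (ratio -0.13, spread 0.19). Snrpb2, the partner of Snrpa1 on U2 small nuclear RNA, averaged -0.17 ± 0.05 (SD over 2 probe sets). The 6 probe sets of Snrpc, Snrpa1 and Snrpb2 that lay above the floor on both arrays were thus all below 0. Another U1 protein outside the naming rule, Snrnp70, was at 0.30 and 0.39.

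The Sm proteins form the ring common to most snRNPs. Snrpg read 12.98 in the Mll2 shRNA array against 13.32 in the control (1448357_at, ratio -0.35, spread 0.19). Its second probe set, 1448358_s_at, read 14.19 against 14.34 (ratio -0.15), near the median of -0.12 of its neighbours in level. Snrpf was at -0.24 and Snrpe, 14.57 against 14.62 in 1451294_s_at, at -0.05, within the spread of 0.12. Snrpb averaged -0.16 ± 0.04 (SD over 2 probe sets). Snrpd3 was split, with -0.21 in its bright probe set 1422884_at and 0.28 in 1449629_s_at, which read 8.61 against 8.34 and lay within its spread of 0.34. This was the only snRNP probe set above 0 among those above the floor on both arrays. A further one, 1422885_at, read 6.23 with the Mll2 shRNA and 3.39 in the control, and is a bound of at least 1.16-fold. Of the 14 snRNP probe sets, 4 lay below the median of their neighbours by more than the spread and none above it, where 14.8% and 15.8% of all probe sets did. In number this is close to the 30.6% of all probe sets outside the spread. The sequences of Snrpc and Snrpg shown above both hold the ETS core, which was found in 4 of 7 snRNP genes. The windows of Snrpa1, Snrpf and Snrpd3 did not hold it.

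SF3 genes showed a similar lean with more exceptions. Sf3b3, a scaffold subunit of SF3b, was the lowest by its gene mean, with ratios of -0.44 (1415985_at, 11.42 against 11.85) and -0.40 (1430075_at, 8.98 against 9.38). Both exceeded their spreads of 0.22 and 0.32. Sf3a1, the largest SF3a subunit, was at -0.54 in 1419087_s_at, which read 9.39 against 9.94 (spread 0.28), at -0.29 in its brightest probe set and at -0.03 in the dim 1446687_at. Its 3 probe sets averaged -0.29 ± 0.26 (SD). Sf3b5 averaged -0.26 ± 0.09 and Sf3a3 -0.21 ± 0.12 (SD over 2 probe sets each). For these 4 genes every probe set above the floor on both arrays was below 0.

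The other SF3 genes lay closer to 0. Sf3b1, the subunit that contacts the branch site and is often mutated in blood cancers, had 3 of 4 probe sets slightly above 0, with a mean of 0.08 ± 0.09 (SD). Its 1418562_at read 11.86 against 11.71 (ratio 0.15, spread 0.24) and its brightest, 1449138_at, 13.06 against 13.10. Sf3b2, which binds near the branch site, averaged -0.11 ± 0.07 (SD) over 6 probe sets, 5 of them below 0, and its brightest, 1438637_x_at, was at 0.01. Sf3b4 differed in sign between its probe sets, at -0.30 and 0.23 (1436784_x_at, 8.39 against 8.16, spread 0.35). Sf3b6, the branch-site adenosine binding subunit also called p14, had 3 bright probe sets between -0.11 and -0.07, and the dim 1435508_x_at at 0.35 (6.40 against 6.06, spread 0.51). Sf3a2 averaged -0.02 ± 0.20 (SD over 2). In all, 7 of 27 SF3 probe sets lay below the median of their neighbours by more than the spread, and none lay above it (14.8% and 15.8% of all probe sets).

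**Figure D2:**
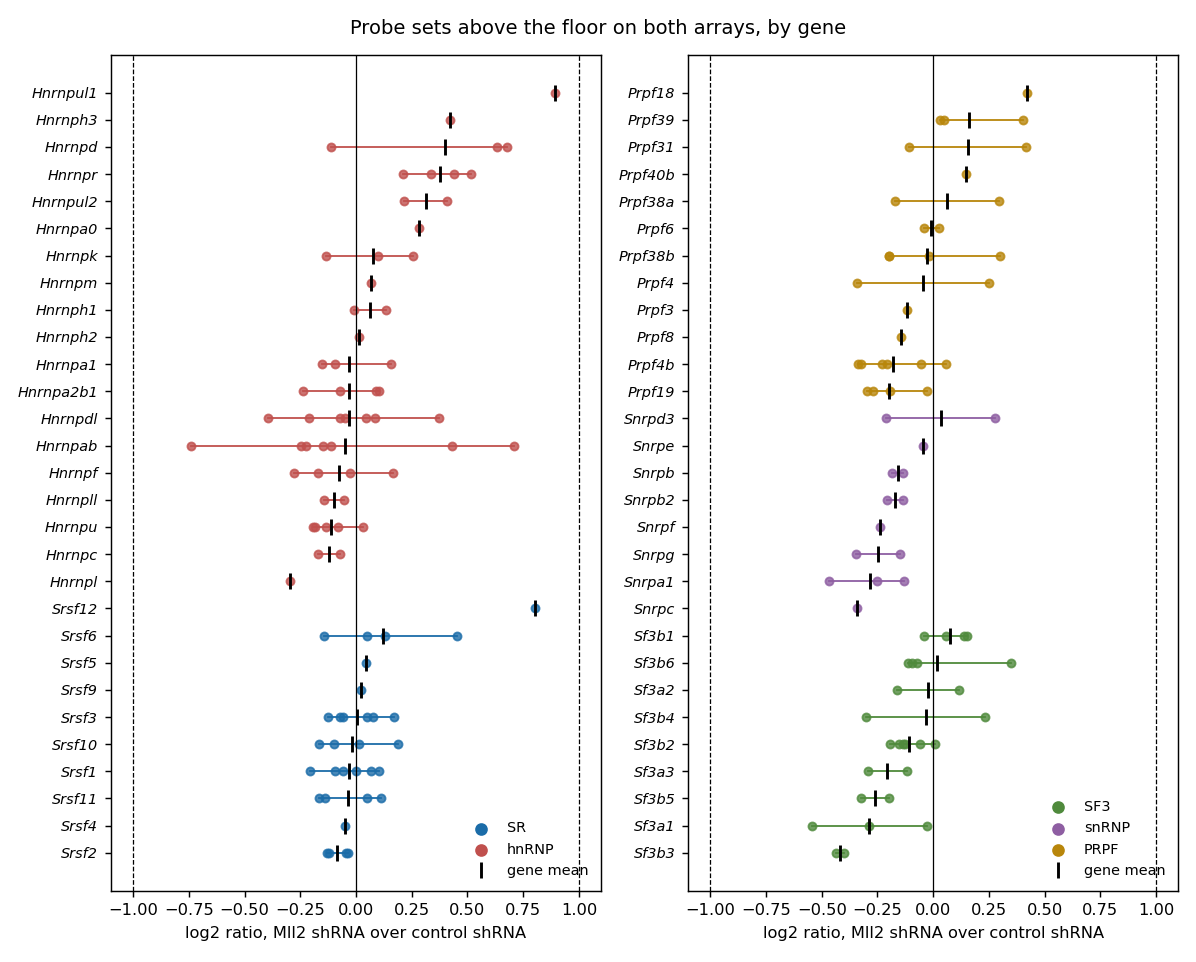
Log2 ratios (horizontal axis) of each probe set above the floor on both arrays, with genes in rows ordered by their mean ratio within families. Points are probe sets, lines join the lowest and highest of a gene, and vertical ticks are gene means. Of the 8 snRNP genes, 7 have every point below 0, whereas Hnrnpab spans from -0.74 to 0.71.

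SR ratios mostly lay close to 0. Of its 32 measured probe sets, 30 lay within 0.25 of 0 (93.8%, against 55.7% of all probe sets). These shares are not matched for level: the SR median level was 12.4 against 8.75 for all, and the spread narrows with level. Probe sets of a gene differed with a pooled SD of 0.14. The most studied member, Srsf1, had 6 probe sets above the floor. Its brightest, 1428099_a_at, read 14.45 with the Mll2 shRNA and 14.55 in the control (ratio -0.10), 1434972_x_at read 14.09 on both arrays, and the lowest ratio was -0.21 in 1452430_s_at (10.09 against 10.29, spread 0.30). Srsf3, the smallest SR protein, averaged 0.01 ± 0.11 (SD over 6 probe sets). Srsf2, which helps to define 3′ splice sites, averaged -0.08 ± 0.05 (SD over 4), with every probe set slightly below 0. Srsf4, Srsf5 and Srsf9, with 1 probe set each, were at -0.05, 0.04 and 0.02.

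A few SR probe sets stood further out. Srsf12 had the highest ratio of the family at 0.80, from a dim probe set that read 7.17 against 6.37 (1437168_at, spread 0.46, no second probe set). For Srsf6 the probe set 1447898_s_at read 12.66 against 12.21 (ratio 0.45, spread 0.21), but the other 3 lay between -0.14 and 0.13. Srsf10, a splicing repressor in its dephosphorylated form, ran from -0.17 (1449121_at, 10.79 against 10.96) to 0.19 (1423982_at, 12.93 against 12.74). Srsf11 had its lowest ratio, -0.17, in 1427269_at. Of 32 SR probe sets, 5 lay above the median of their neighbours by more than the spread, near the 15.8% of all probe sets, and none lay below it (14.8% of all).

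The hnRNP family had the widest ratios. Hnrnpul1, an RNA-binding protein also involved in DNA repair, had the highest ratio of any member above the floor on both arrays. It read 12.15 with the Mll2 shRNA and 11.26 in the control (1451984_at, ratio 0.89 or 1.85-fold, spread 0.22), with no second probe set. Its relative Hnrnpul2 was at 0.41 and 0.21. Hnrnpr, which binds RNA through several recognition motifs, was higher in each of its 4 probe sets above the floor, with a mean of 0.38 ± 0.13 (SD) and 13.19 against 12.68 in the brightest. Hnrnph3 was at 0.42 and Hnrnpa0, which binds AU-rich elements, at 0.28, each from 1 probe set. In this family 17 probe sets lay above and 4 below the median of their neighbours by more than the spread, of 54, against 15.8% and 14.8% of all probe sets.

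Some hnRNP genes had probe sets that disagreed. Hnrnpab, a binder of single-stranded nucleic acids, was the only member gene whose probe sets spanned more than 1 on the log2 scale. Of its 7 probe sets, 4 were slightly lower with the Mll2 shRNA, at -0.11 (1455855_x_at, 14.45 against 14.56), -0.15 (1415914_at, 14.07 against 14.22), -0.25 (1453849_s_at, 13.46 against 13.71) and -0.22 (1448144_at, 11.41 against 11.64). In contrast, 1426114_at was at 0.43 (12.09 against 11.66) and the dim 1459880_at at 0.71 (7.36 against 6.65, spread 0.50), while 1431349_at was at -0.74 (8.21 against 8.95, spread 0.32). The 7 averaged -0.05 ± 0.48 (SD). Hnrnpd, also called AUF1, which binds AU-rich mRNA elements, was at -0.11 in its brightest probe set and at 0.63 and 0.68 in 2 dimmer ones, of which 1458273_at read 7.50 against 6.82 (spread 0.46). Its relative Hnrnpdl ran from -0.39 (1428225_s_at, 10.03 against 10.42) to 0.37 over 7 probe sets.

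The single member past 2-fold was the Hnrnpk probe set 1454692_x_at, which read 9.12 with the Mll2 shRNA and 5.99 in the control, just under the floor. The difference was at least 8.62-fold with this floor, at least 2.24-fold with a 70th percentile floor, and 4.85-fold with a pseudocount in place of the floor. Hnrnpk binds C-rich RNA and DNA. Its other 3 probe sets were far brighter, at 0.25 (1460547_a_at, 14.52 against 14.27, spread 0.12), 0.10 (1448176_a_at, spread 0.15) and -0.13. Neighbours in level of 1460547_a_at and 1448176_a_at had medians of -0.12 and -0.11, so both lay above these by more than the spread. The suffix _x_at marks probe sets with probes that can match other transcripts. The reason for the disagreement was not tested. Other hnRNP genes lay on either side of 0. Hnrnpa1 and Hnrnpa2b1, regulators of exon skipping, averaged -0.03 ± 0.16 each (SD over 3 and 4 probe sets), with their brightest probe sets at 0.16 and 0.10. Hnrnpu, a nuclear scaffold protein, averaged -0.11 ± 0.09 (SD over 5), and Hnrnpc, which guards against cryptic exons, -0.12 ± 0.07 (SD over 2). Hnrnpf averaged -0.08, with 0.17 in its brightest probe set. Hnrnph1 averaged 0.06, and Hnrnpm was at 0.07 in its only probe set. Hnrnpl was at -0.30 in 1424101_at (12.36 against 12.66, spread 0.20).

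**Figure D3:**
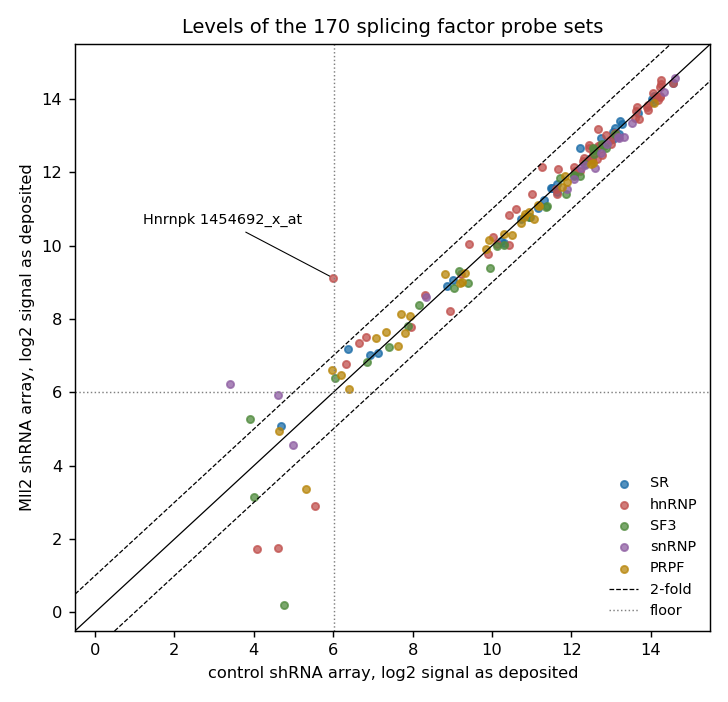
Deposited log2 signals of the 170 member probe sets in the control array (horizontal axis) and the Mll2 shRNA array (vertical axis), with the floor of 6.02 dotted and 2-fold limits dashed. Above the floor on both arrays all points lie inside the 2-fold limits, and the labelled Hnrnpk point lies just left of the floor.

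The PRPF proteins act at several steps. Prpf19, the ubiquitin ligase at the centre of the Prp19 complex, was below 0 in each of 4 probe sets, with a mean of -0.20 ± 0.12 (SD). Its 1456531_x_at read 13.88 against 14.07 (ratio -0.20, spread 0.16) and 1419839_x_at 12.25 against 12.55 (ratio -0.30, spread 0.21). Their neighbours in level had medians of -0.10 and -0.04, so 1456531_x_at lay within the spread around that median and 1419839_x_at below it. Prpf8, the core protein of the U5 snRNP, was at -0.15. The tri-snRNP proteins Prpf3, Prpf6 and Prpf31, which carry mutations in inherited retinal degeneration as Prpf8 does, were at -0.12, at a mean of -0.01 ± 0.05 (SD over 2) and at 0.15 ± 0.37 (SD over 2). Prpf31 was split between -0.11 in its bright probe set and 0.42 in 1453005_at (8.12 against 7.71, spread 0.38).

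Further PRPF genes lay on either side of 0. Prpf18, a second-step factor, was at 0.42 (1429614_at, 9.23 against 8.82, spread 0.33). Prpf4b, a kinase that phosphorylates spliceosome proteins, had 5 of 6 probe sets below 0, with -0.34 in 1455696_a_at (10.72 against 11.06, spread 0.27), -0.32 in the dim 1451732_at and 0.06 in its brightest. Prpf4 was split between -0.34 (1438481_at, 7.28 against 7.62, spread 0.44) and 0.25. Prpf39, a U1-associated factor, was above 0 in each of 3 probe sets, up to 0.40 in 1452688_at (7.47 against 7.07, spread 0.46). A Prpf38a probe set, 1444087_at, read 6.62 against 5.98 and is a bound of at least 1.52-fold. Of 29 PRPF probe sets, 4 lay further from the median of their neighbours than the spread, 1 above and 3 below, where 30.6% of all probe sets did.

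Agreement within genes bears on how firmly single values can be read. For 41 member genes with 2 or more probe sets over the floor in both, values within a gene had a pooled SD of 0.22, against 0.28 over all 4713 such genes. All probe sets of a gene were below 0 for 12 of the 41, above 0 for 3, and of both signs for 26. Over the 4713 genes these shares were 23.7%, 30.7% and 45.6%. Probe sets of a gene share the RNA and can share sequence, so this spread is not an error over cultures. The 11 members below the floor on both arrays were dim probe sets of Prpf19, Prpf6, Sf3a1, Sf3b2, Sf3b5, Srsf1, Hnrnpc, Hnrnpl, Hnrnpr, Snrpb2 and Snrpc. Each of these genes had another probe set that was measured.

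The medians depended on how the arrays were scaled to each other. The snRNP median over measured probe sets was -0.19 in the deposited scaling, -0.18 when each array was centred on its median, -0.10 with quantile normalization and -0.11 with loess. It was -0.05 after scaling on the bacterial spike-in controls, which moved the median of all probe sets from 0.02 to 0.13. The SF3 median ran from -0.13 to -0.11 under the first 4 and was -0.0015 with spike-in scaling. Relative to all probe sets, the snRNP and SF3 medians were lower under each of the 5. The SR and hnRNP medians changed sign between them and were never further than 0.11 from 0. The number of snRNP probe sets below 0 was 13 of 15 measured as deposited and 12 of 16 with spike-in scaling, and for SF3 it was 20 and 14 of 27.

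**Figure D4:**
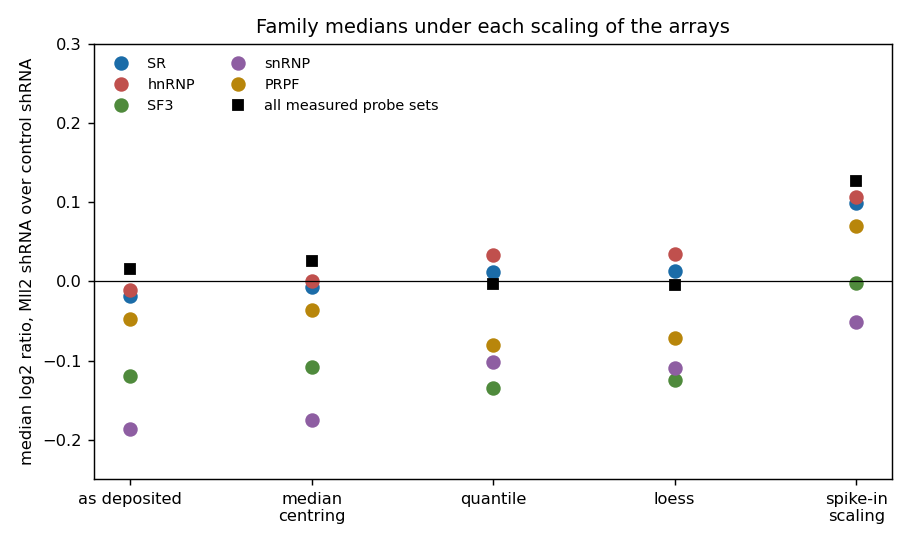
Median log2 ratio (vertical axis) of the measured probe sets of each family, and of all measured probe sets (squares), under 5 scalings of the 2 arrays. With spike-in scaling all medians move up, that of all probe sets to 0.13, and the snRNP median is -0.05.

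The other genes of the pathway were grouped by role in 11 lists and represented by the brightest measured probe set of each gene. Of 156 genes, 136 were measured. Among them 1 was at least 2-fold lower, none was 2-fold higher, and the median was -0.09. Over 11805 measured genes the median was 0.03, where 1.47% were past 2-fold upward, 0.983% past it downward and 46.5% below 0. A further list holds the survival of motor neuron (SMN) complex, which assembles Sm rings on small nuclear RNAs, together with other factors of snRNP assembly. In this list 11 of 12 measured genes were below 0 by their brightest probe set, with a median of -0.22. The median ran from -0.27 to -0.21 under median centring, quantile normalization and loess and was -0.11 with spike-in scaling, where 9 of 12 were below 0. Snupn, the import adaptor of new snRNPs, was at -0.56 (8.80 against 9.37, spread 0.35) with 0.19 in a second probe set, and Prmt5, which methylates Sm proteins, at -0.54 (10.75 against 11.28, spread 0.27). Gemin7 at 0.19 was the exception by the brightest probe set. Strap and Wdr77, below 0 in theirs, had other probe sets up to 0.25 and 0.16.

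The other snRNP proteins did not lean one way, with 6 of 12 above 0 and a median of -0.03. Sart3, a recycling factor, was at -0.53, and Txnl4a, a U5 protein, at -0.43. The LSM proteins, Sm-like proteins of which several bind U6 small nuclear RNA, had 7 of 10 below 0 and a median of -0.08, or 0.03 with spike-in scaling, with Lsm7 at 0.49 and Lsm2 at -0.37. Branch-site and U2AF factors had 9 of 14 below 0 and a median of -0.13. Dhx15 was at 0.37 with -0.19 in a second probe set, and Smndc1 at 0.35 with other probe sets down to -0.03. Cherp was at -0.54 and Phf5a, an SF3b subunit outside the naming rule of the family, at -0.39. Among 11 helicases, Dhx38 was 2.02-fold lower (7.12 against 8.14, spread 0.43, 1 measured probe set, and within 2-fold with spike-in scaling) and Dhx16 was at 0.55. The Prp19 complex had a median of -0.14 over 14, with Xab2 at -0.41 and Ppie, a cyclophilin, at -0.36.

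Regulators outside the member families were mixed. SR-related proteins had a median of -0.04 over 19 measured genes, or 0.07 with spike-in scaling. Rsrc1 was at 0.40 and Scaf11 at -0.25, although Scaf11 probe sets ran up to 0.16. The 7 measured SR protein kinases had a median of 0.02, with Srpk2 at 0.46 and Dyrk1a at -0.30. Probe sets of Dyrk1a differed in sign, from -0.30 to 0.47. Of 35 other regulators, Mbnl2, a muscleblind protein, was highest at 0.72, although its probe sets ran from -0.27 to 1.02, and Esrp1, an epithelial splicing regulator, was lowest at -0.69. Its paralogue Esrp2 was at -0.67. The 4 measured genes of the exon junction complex list, which also holds Upf decay factors, lay between -0.16 (Rbm8a) and 0.13 (Casc3). The 7 minor spliceosome genes had a median of -0.21 with 3 above 0. Snrnp48 was at -0.33, with other probe sets up to 0.07, Snrnp35 at -0.23 and Zcrb1 at 0.20. Across the 5 scalings the medians of the lists for the SMN complex with snRNP assembly, branch-site factors, Prp19 complex and minor spliceosome were below 0 each time. Those of the other 7 changed sign.

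**Figure D5:**
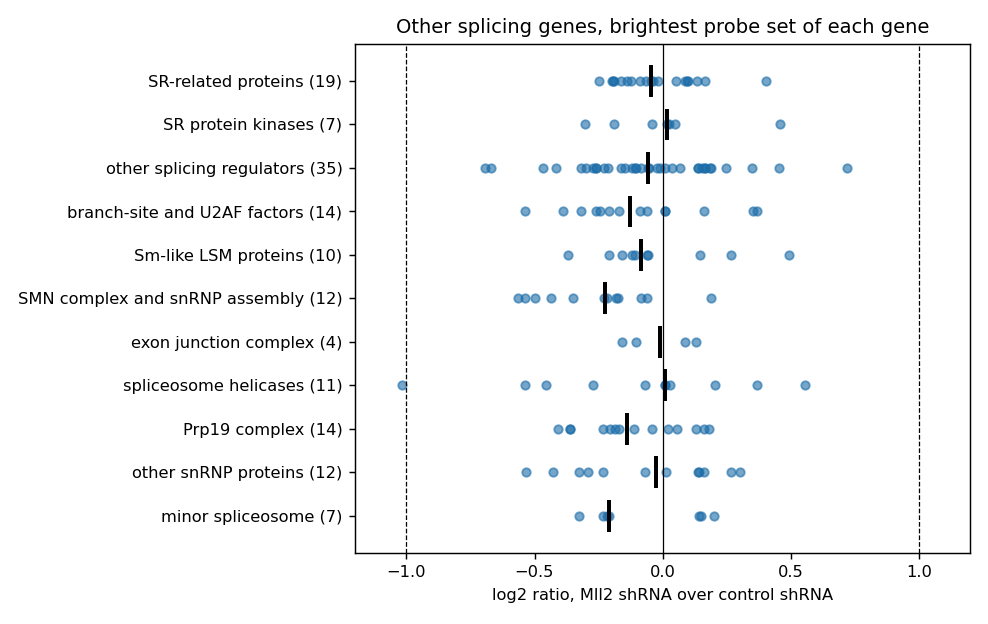
Log2 ratios (horizontal axis) of splicing genes outside the member families, 1 point per gene, in 11 lists by role with the number of measured genes in parentheses. Bars are list medians and dashed lines mark 2-fold. Dhx38 at -1.02 is the only point past 2-fold.

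Among the 52 member genes with a promoter in the table, the 19 with an ETS core had a median gene mean of -0.11 in the deposited scaling, 16 of them below 0 (84.2%), and the 33 without it had a median of 0.01, 15 of them below 0 (45.5%). Over all measured genes with a promoter, the medians were -0.0011 for 1910 genes with the ETS core and 0.04 for 7628 without it. Of these, 50.1% and 45.8% were below 0. Here each gene was taken by its brightest probe set, unlike the member gene means, so these shares and those of the members are not the same measure. Within the snRNP family the 3 genes without the core lay lower by the median, at -0.24 with 2 of them below 0, than the 4 with it, at -0.21 with all below 0. Of the 19 genes with the core, 6 were SF3 and 4 were snRNP genes, the families that lay lowest. Medians with and without the core were -0.16 (6 genes) and 0.08 (1 gene) for SF3. They were -0.15 (4) and 0.06 (7) for PRPF, and -0.04 (3) and 0.01 (7) for SR. For hnRNP genes the order was reversed by gene means, at 0.16 (2) and 0.01 (15). Those with the core were Hnrnpd and Hnrnpf, with means of 0.40 and -0.08 but -0.11 and 0.17 in their brightest probe sets. The hnRNP order thus depends on how a gene is summarised. Genes of a family share other features, the split was not planned in advance, and these values are a description.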

How the data were processed

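Messenger RNA was measured on 1 array for each of 2 groups. The deposited values are log2 signals of 45101 probe sets. MAS5 was applied by the authors, per the submitters' processing notes, and its version is not given in the sources used here. By the values, both arrays have a 2% trimmed mean signal of 500.0. The 64 control probe sets were set aside. Members and lists were chosen with earlier results of these data known. Symbols come from the platform annotation, which names 1 gene for 34945 probe sets, several for 932 and none for 9160. Named were, per family, probe sets at 2-fold, the 3 highest and lowest ratios, the 2 brightest and genes spanning more than 1; per list, genes at 2-fold and the 2 largest ratios in size. Other named members and list genes were chosen after their values were seen, for their role or as examples, as were the 5 printed promoters. Steps were tested on simulated data. No protein sequences were used here. Alternatives were other scalings, floors, fold limits, a pseudocount, units of summary and symbol sets. With 1 array per group, precision over cultures is unknown. Python 3.11.15, numpy 2.4.6, pandas 2.3.3, and R 4.3.3 with limma 3.58.1 (loess, span 0.3) were used.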

Additional observations from a re-analysis of the deposited data

How the results depend on the processing

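No paired analysis was possible because each group holds 1 array. The count of members at least 2-fold higher, 1 as reported, was 0 without the suffixes _s_at, _x_at and _a_at, with 1 value per gene (brightest or mean) or when both arrays had to exceed the floor. It was 2 with spike-in scaling, 3 with the floor at the 30th percentile, 4 with no floor and 7 at a 1.5-fold limit. The count at least 2-fold lower, 0 as reported, was 5 with no floor and 1 at a 1.5-fold limit. With spike-in scaling the medians were 0.0604 for all members, 0.0992 for SR, 0.1065 for hnRNP, 0.0698 for PRPF, -0.0015 for SF3 and -0.0513 for snRNP genes. The SR median, -0.02 as reported, was 0.0126 with quantile normalization, 0.0127 with loess, 0.0003 with the floor at the 30th percentile, no floor or a pseudocount, and 0.0484 without the suffixes. The hnRNP median over measured probe sets, -0.01 in the deposited scaling, was 0.00 after median centring, 0.0329 with quantile normalization, 0.0349 with loess, and by gene 0.1048 (brightest probe set) or 0.0129 (mean). Of 345 ratios of named probe sets under alternatives, 122 did not move at all, most of them because a changed floor does not touch bright probe sets, and 3 moved by more than the spread at their level: the log2 ratio of the Hnrnpk bound, 3.11, went to 1.17 (70th percentile floor) and to 2.28 with the pseudocount, and the Snrpe ratio to 0.09 with quantile normalization. A median was counted as moved beyond 0.1. The snRNP and SF3 medians were below 0 under every alternative run. Depth does not apply to arrays, and ratios of dim probe sets had wider spreads at their level.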

Other observations

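Several probe sets that name a splicing factor together with a related gene or pseudogene were left out by the rule. The 10 of them without Snrpn were all above the floor on both arrays, with a median ratio of -0.05 and a range from -0.27 to 0.38. The Sm protein genes Snrpd1 (1416336_s_at) and Snrpd2 (1452680_at) were at -0.27 and -0.17, and Snrpa of the U1 snRNP (1417274_at) at -0.19, all below 0 in the deposited scaling. The 3 shared Hnrnpa1 probe sets lay between -0.18 and -0.01. Those of Hnrnpa3 were split by level: 0.38 in 1452712_at (11.50 against 11.13) and 0.28 in 1452774_at (11.76 against 11.49), and -0.06 and 0.01 in the brighter 1428262_s_at and 1451184_at. Of 7 probe sets of Snrpn, the imprinted paralogue of Snrpb, 4 were above the floor on both arrays, at -0.36 to -0.05. All of these were chosen after their values were seen, and sequence shared with related genes was not separated.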
